A study of Mus musculus with 12 samples.

Results

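Tumours grown from a pair of Mif knockout lines, KO line 24 and KO line 19, were compared with each other. Members were the tumours of the library made from each line, taken at days 6, 10 and 16. A barcode was kept with at least 300 genes, at most 15% mitochondrial UMIs (unique molecular identifiers, each counting 1 captured transcript), and a leading hashtag of at least 20 counts and 3 times the next. This gave 11 tumours (6 of line 19, 5 of line 24) of the 45 hashtag samples with cells in the series, day 0 samples included, and 34004 of 116375 assigned cells. The second line 24 tumour of day 6 was lost, since its hashtag held 7281 counts, 0.0149% of its library, and no cell.

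Mif encodes a secreted cytokine that signals through Cd74, with Cd44 and the chemokine receptors Cxcr2 and Cxcr4 as partners. Cells that meet interferon switch on Stat2, guanylate-binding proteins and the MHC class I machinery, which shows peptides to CD8+ T cells. Knockout lines derived apart can differ in many genes other than the one that was targeted.

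The series title concerns the rejection of melanoma, and live cells sorted from mouse tumours were marked with TotalSeq-C hashtag antibodies and profiled with the 10x Genomics 5′ kit. The labels name the lines SCC35 Mif KO 19 and SCC35 Mif KO 24, and the series also holds lines SCC35 Mif KO control 15 and 18. A pair of further libraries mixed lines, and gave 3 tumours each of line 19 and of line 24, 1 at each of the same days. Line 19 was captured with controls 15 and 18, and line 24 with control 18 and a further line. The label of that line ends in no line number, and it was left unassigned here. The sources used here do not give the kind of knockout lesion, the host strain or age, or whether a line is 1 clone. The tumours of both lines carry the Mif knockout label. Each hashtag was taken as 1 tumour, and the labels do not say that each came from a separate animal, so p-values measure only the spread between these tumours. In each comparison the lines sat in different capture libraries, so line and library cannot be told apart.

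Cells with at least 2 UMIs of Ptprc and Tyrobp, genes of blood cells, were called immune, and all remaining cells are named other cells. There were 13118 other and 3529 immune cells of line 19, and 11896 and 5461 of line 24. The library of line 24 was shallower, with a median of 3393 UMIs per other cell against 9769 for line 19. Its hashtag calls were ambiguous for 40.4% of passing barcodes against 19.0%. Summed counts of other cells ran from 11349286 to 35821385 UMIs per tumour in line 19 and from 2353987 to 19409986 in line 24. The libraries shared 1251 barcodes, 4.81% of the smaller one, within the 3.83% to 5.05% of all library pairs. The melanoma label could not be checked on pigment genes: Dct, Tyr and Tyrp1 were at 0 in the other cells of line 19, Tyr was at 0 in line 24, and the melanocytic markers together reached at most 15.6 CPM in these libraries and 19.9 CPM in the mixed ones (counts per gene scaled to a common library total). Other cells also hold any stromal cells of the tumour, and in summed counts fewer cells of a type and less RNA per cell cannot be told apart.

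Mif itself was low in both lines and lower in line 19. Its level in other cells was 110, 106, 86.9, 97.2, 91.9 and 105 CPM in the 6 tumours of line 19 and 360, 481, 424, 463 and 410 CPM in the 5 of line 24. The lines did not overlap, and both lay far below the controls, which averaged 2486 CPM for control 15 and 2111 CPM for control 18. The log2 fold change of Mif, line 24 over line 19, was 2.13 (SE 0.08, n = 5 and 6, adjusted p = 7.8e-10 by edgeR's quasi-likelihood test with Benjamini-Hochberg adjustment). The day 0 samples gave 35.1 and 45.7 CPM in line 19 and 197 and 213 CPM in line 24, so the order held in samples with at most 19 immune cells each. The sheet does not say what day 0 stands for. In the mixed libraries, which also captured control cells, Mif was 338 to 432 CPM in line 19 and 1085 to 1139 CPM in line 24. Controls 15 and 18 in the mixed libraries read 1627 to 1940 CPM. Their part in the higher mixed levels of the knockout lines was not tested, nor was that of the unassigned line captured with line 24.

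In the own libraries the other cells of the lines differed in most of the genes tested. Of 14146 genes tested, 8601 (60.8%) passed, 4275 higher (30.2%) and 4326 lower (30.6%) in line 24, and 4898 (34.6%) did not overlap between the tumours of the lines. Every count of list members below is to be read against these shares. The median log2 fold change over all genes was 0.01. In the mixed libraries a minority passed, 36.5% of 13496 genes. Fewer genes also passed with every cell of the own libraries thinned to equal depth.

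Sparcl1, an extracellular glycoprotein, was among the genes most raised in line 24. It read 4.17, 2.96, 3.92, 7.92, 6.51 and 2.80 CPM in line 19 and 101, 179, 195, 122 and 154 CPM in line 24. No tumour of line 19 came near the lowest of line 24, and the day 0 samples averaged 9.33 CPM in line 19 and 203 CPM in line 24. Controls 15 and 18 averaged 10.0 and 7.54 CPM, so line 24 stood above all 3 other lines in Sparcl1. On the log2 scale Sparcl1 was higher by 5.02 (SE 0.19, n = 5 and 6, edgeR adjusted p = 5.4e-10). Other large differences were those of Ccn5, a matricellular protein (log2 fold change 5.39), Ccl2, the monocyte chemoattractant (4.35), Lama4, a basement-membrane laminin chain (4.0), Mmp3, stromelysin (3.83), Dclk1, a microtubule-associated kinase (3.79), and the syndecan Sdc3 (3.72). All 7 were chosen from genes that passed edgeR's test and did not overlap between the lines, so neither trait is a further result. Lama4 spanned 2.38 to 3.82 CPM in line 19 and 40.6 to 53.6 CPM in line 24.

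Wfdc2, a secreted protease-inhibitor-like protein of epithelia, was among the genes most raised in line 19. It read 169, 181, 350, 289, 323 and 173 CPM in line 19 and 2.81, 0.93, 0.80, 0 and 1.75 CPM in line 24. The choice of these genes required that the lines not overlap, and in Wfdc2 line 19 stood far above line 24. Line 19 averaged only 14.1 CPM of Wfdc2 in its day 0 samples, and controls 15 and 18 averaged 4.80 and 1.31 CPM. The fitted log2 fold change, -7.81 (SE 0.32), had an adjusted p of 1.2e-09 by edgeR. The others were Dynap (-7.56), Hspb7, a small heat-shock protein (-7.25), Cldn9, a tight-junction claudin (-7.20), Eps8l2 (-6.93), the annexin Anxa8 (-6.0), Mtus2 (-5.94) and Bcam, the Lutheran laminin receptor (-4.77). Hspb7 was also high in controls 15 and 18 (means 113 and 196 CPM against 210 CPM in line 19), so here line 24, at 0.80 to 3.84 CPM, was the one that stood apart.

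**Figure D1:**
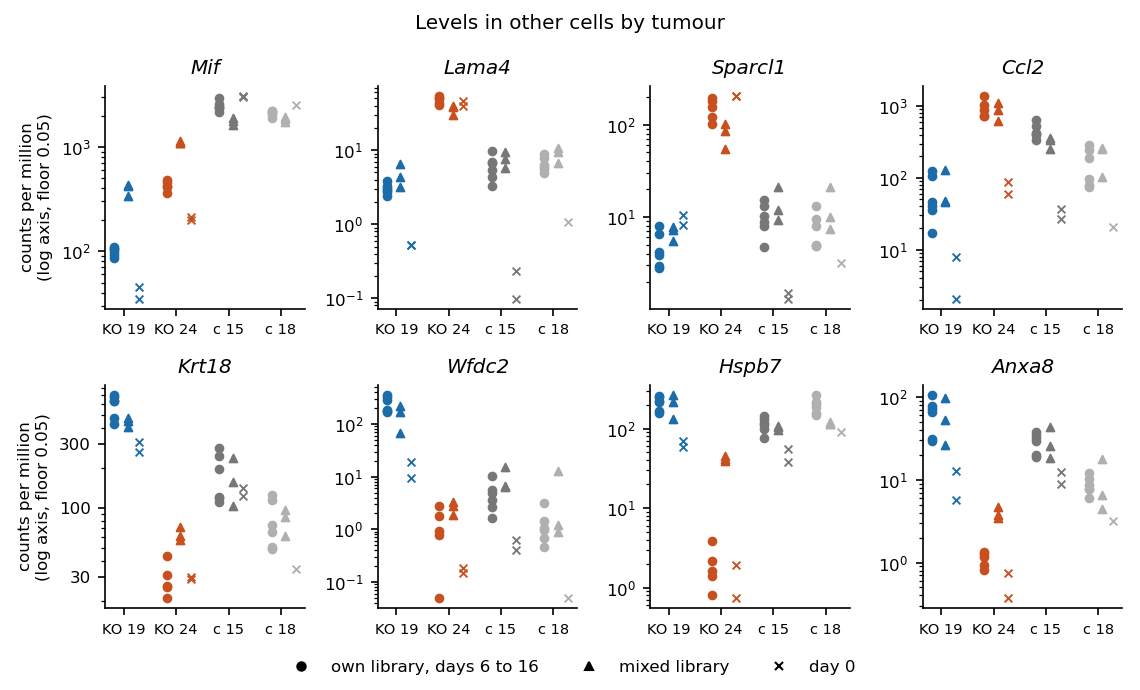
Levels of Mif and 7 genes in the other cells of each tumour, in CPM on a log axis with values of 0 drawn at 0.05, for KO lines 19 and 24 and controls 15 and 18 (c 15, c 18). Circles are tumours of a line's own library, triangles tumours of the mixed libraries and crosses day 0 samples. Sparcl1 lies at 101 to 195 CPM in line 24 against at most 7.92 CPM in line 19, and Wfdc2 at 169 to 350 CPM in line 19 against at most 2.81 CPM in line 24.

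Antigen presentation and interferon genes were higher in the other cells of line 24. Of the MHC class I list, 14 of 16 genes were higher and 1, the chaperone Pdia3, was lower, with a median log2 fold change of 1.06. The largest were Nlrc5, the class I transactivator (2.0, SE 0.19, edgeR adjusted p = 2.4e-06), the immunoproteasome subunit Psmb9 (1.92), and the peptide transporter genes Tap1 (1.61) and Tap2 (1.51). Of the interferon list, 19 of 22 were higher and Ifitm3 was lower (median 1.44). Its largest were the GTPase Iigp1 (2.89), the nucleic acid sensor Zbp1 (2.15), the guanylate-binding protein Gbp3 (2.15) and the GTPase Igtp (2.03). Of the class II list, 6 of 7 were higher (median 2.46), led by H2-Eb1 (2.89), H2-Aa (2.85), H2-Ab1 (2.63) and Cd74 (2.46), the class II invariant chain and Mif receptor.

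Class II genes are marks of immune cells, and some immune markers were higher in the other cells of line 24. Macrophage markers summed to 13.6 to 36.2 CPM in the other cells of line 19 and to 71.6 to 155 CPM in line 24, and T-cell markers to 20.9 to 65.1 and 76.8 to 375 CPM. Dendritic-cell markers, at 91.6 to 138 and 97.0 to 108 CPM, and monocyte markers, at 688 to 1916 and 1277 to 1627 CPM, overlapped between the lines. The monocyte list includes the matrix genes Vcan and Fn1, so its sum need not measure immune RNA, and the part of each gene was not tested. Cd74 in other cells stood at 2.05% of its immune-cell level in line 19 and 4.96% in line 24. A purer gate, which kept other cells of at least 2000 UMIs with 0 UMIs of Ptprc, Tyrobp and the Cd3 and C1q genes, left the counts nearly as they were: 14 of 16 class I, 19 of 22 interferon and 6 of 7 class II genes were higher, with medians of 1.16, 1.49 and 2.11. Ifitm3 was no longer called lower with this gate, and with it Ifitm3 was higher in the mixed libraries. Over all genes this gate called 7289 of 13105 (55.6%), 28% higher and 27.6% lower, and 31.5% in the mixed libraries. This gate asked for 0 of these UMIs at any depth. Other cells of line 24 had fewer UMIs, so it was less strict for line 24 than for line 19. The part of immune RNA in the class II differences was not tested.

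For Gbp3, Nlrc5, Stat2 and Tap1 the difference between the lines changed with day in the own libraries. In line 19 Gbp3 read 32.7 and 36.2 CPM at day 6, 5.58 and 8.09 at day 10, and 7.98 and 8.44 at day 16. In line 24 it read 60.7 at day 6, 33.8 and 36.7 at day 10, and 64.6 and 48.6 at day 16. The tumours of line 19 were highest at day 6, while in line 24 the day 6 tumour lay within the range of the day 16 tumours. Nlrc5 did likewise, with 14.9 and 14 CPM at day 6 and 4.61 to 6.07 CPM later in line 19, against 20.5 to 34.3 CPM in line 24. At day 6 Stat2, the interferon signalling factor, differed little, with 35.7 and 39.5 CPM in line 19 against 39.4 CPM in line 24, and at day 16 it read 17.3 and 15.9 against 64.6 and 55.8 CPM. Tap1 stood at 61.3 and 66.9 CPM against 72.0 CPM at day 6, and at 17.4 and 28.2 against 133 and 98.1 CPM at day 16.

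A test of whether the line difference changed with day passed for 168 of 14902 genes (1.13%) by edgeR's quasi-likelihood test. Among them were 12 of the 16 class I and 17 of the 22 interferon genes, and 6 of the 16 collagens, described further on. Il33, C1ra, Ogn, Sparc and Phlda1 passed too, so the fold changes given for them further on pool days that differed. Line-by-day adjusted p by edgeR was 0.0083 for Nlrc5, 0.0156 for Gbp3 and 0.0211 for both Stat2 and Tap1. The median log2 difference of the interferon list was 0.21 at day 6, 1.59 at day 10 and 1.97 at day 16, and that of the class I list 0.20, 1.19 and 1.40. The class II medians, 0.41, 2.85 and 3.02, came from genes that did not pass this test. The purer gate left 12 class I and 17 interferon genes among 177 of 13796 genes (1.28%), and it also called 2 of 7 class II genes. Counts thinned to equal depth left 6 and 9, among 60 genes in all. The day 6 value of line 24 is 1 tumour, and leaving out a day 6 tumour of line 19 (letter B) cut the counts to 5 and 8, among 57 genes in all. The mixed libraries had a larger day 6 difference, with interferon medians of 1.18, 1.82 and 2.12 and class I medians of 1.09, 1.11 and 1.5 over the days. Adding them to the fit left 6 class I and 13 interferon genes among 138 of 14481. The share of immune cells moved along: in line 19 it was 22.6% and 17.0% at day 6 and 4.15% to 8.81% later, and its part in these genes was not tested.

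**Figure D2:**
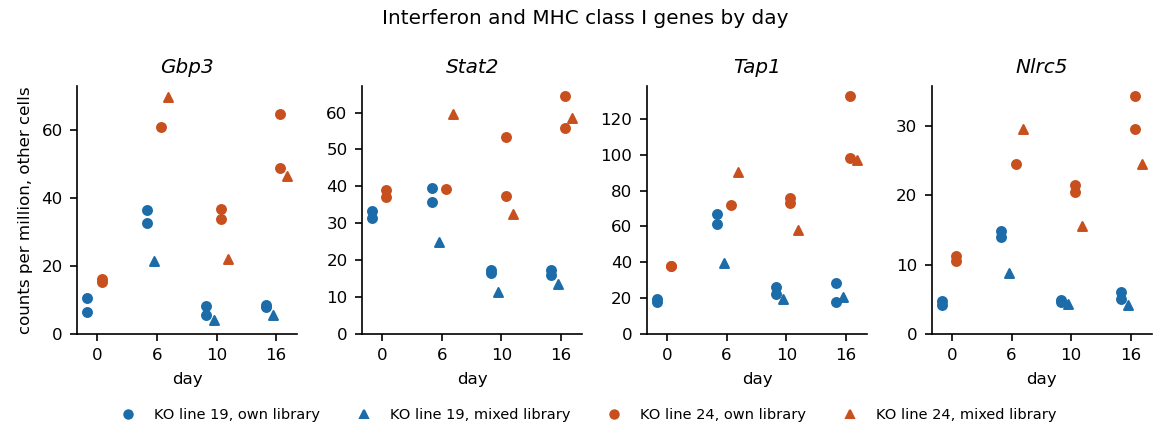
Levels of Gbp3, Stat2, Tap1 and Nlrc5 in other cells, in CPM on linear axes, by day. Each point is 1 tumour or 1 day 0 sample, with circles for a line's own library and triangles for mixed libraries. Line 19 (blue) falls after day 6 in all 4 panels while line 24 (orange) stays above it at days 10 and 16: in the own libraries Gbp3 is then 5.58 to 8.44 CPM in line 19 and 33.8 to 64.6 CPM in line 24.

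Interferon genes that were higher both here and in the purer C1q-gated cells described further on numbered 9, and 7 of them had a promoter window. The windows of Gbp7, Gbp3, Stat2, Isg15 and Bst2 are printed to show the motif. They were picked after their values were seen and because they hold it. The windows of Xaf1 and Oasl2, and the second listed start of Gbp3, held neither motif and are not printed. Each window is the 250 bases before the gene's start from RefSeq (GRCm38.p6), written 5′ to 3′ on the gene's strand: Gbp7 at chr3:142530086-142530335 (+), Gbp3 at chr3:142559794-142560043 (+, the first of its 2 listed starts), Stat2 at chr10:128270248-128270497 (+), Isg15 at chr4:156200819-156201068 (-) and Bst2 at chr8:71537473-71537722 (-). Capitals mark matches, on either strand, to the core of the interferon-stimulated response element (GAAANNGAAA) or to the gamma-activated site (TTCNNNGAA), and overlapping matches run together.
Gbp7: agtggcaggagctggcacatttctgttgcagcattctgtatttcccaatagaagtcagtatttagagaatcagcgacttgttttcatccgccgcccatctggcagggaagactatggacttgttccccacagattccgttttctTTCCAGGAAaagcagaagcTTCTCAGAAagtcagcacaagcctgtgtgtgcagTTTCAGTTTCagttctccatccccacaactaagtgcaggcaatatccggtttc
Gbp3: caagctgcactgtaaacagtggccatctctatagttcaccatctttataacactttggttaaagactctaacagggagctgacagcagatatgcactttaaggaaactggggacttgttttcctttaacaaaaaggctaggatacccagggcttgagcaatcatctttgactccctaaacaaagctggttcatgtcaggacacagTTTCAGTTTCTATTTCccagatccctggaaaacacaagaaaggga
Stat2: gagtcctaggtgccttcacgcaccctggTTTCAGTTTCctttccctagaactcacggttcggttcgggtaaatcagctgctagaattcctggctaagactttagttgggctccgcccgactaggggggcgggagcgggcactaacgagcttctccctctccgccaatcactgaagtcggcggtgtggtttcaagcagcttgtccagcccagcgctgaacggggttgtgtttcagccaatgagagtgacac
Isg15: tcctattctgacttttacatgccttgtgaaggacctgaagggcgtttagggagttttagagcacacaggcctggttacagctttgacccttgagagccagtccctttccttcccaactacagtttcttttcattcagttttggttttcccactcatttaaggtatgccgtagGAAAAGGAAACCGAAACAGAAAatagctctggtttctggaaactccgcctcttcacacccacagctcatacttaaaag
Bst2: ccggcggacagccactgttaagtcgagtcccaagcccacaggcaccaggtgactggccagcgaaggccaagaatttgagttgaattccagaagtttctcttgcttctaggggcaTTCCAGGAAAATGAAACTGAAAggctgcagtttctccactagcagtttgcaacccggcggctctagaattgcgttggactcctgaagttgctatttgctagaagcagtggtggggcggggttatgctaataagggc

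The response-element core was in 5 of the 7 genes, those printed for holding it, and in 11 of the 17 interferon genes with a window (64.7%) and in 1 of 13 class I genes (7.69%), against 3.46% of 27025 genes with a window of this length. The gamma-activated site was in 4 of 17 (23.5%) and 1 of 13, against 8.13% of all genes with a window. A match describes the letters and shows no binding.

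Of the checkpoint ligands, 6 of 10 tested genes were higher and 1 lower. Vtcn1 (B7-H4, a coinhibitory ligand) was the one lower in line 24, with a log2 fold change of -6.36 and -4.40 in the mixed libraries. The costimulatory ligands Cd86 (2.20) and Cd80 (1.71) were higher. Both stayed higher with the purer gate, which in the mixed libraries called Cd80 but not Cd86. The part of immune RNA in them was not tested. Cd276 (B7-H3) lay between 11.4 and 15.5 CPM in line 19 and between 31.0 and 48.7 CPM in line 24, with no overlap (1.63, SE 0.09, edgeR adjusted p = 1.2e-08). Cd274, the ligand PD-L1, was higher by 1.52 (SE 0.21, edgeR adjusted p = 4.4e-05) and was among the genes whose difference changed with day. Of 6 tested genes of the list of Mif, its receptors and the homologue Ddt, Mif itself, Cd74 and Cxcr4 were higher, Cd44 was lower, and Ackr3 and Ddt were not called. Cxcr4, which is also a lymphocyte receptor, was higher by 2.92, but it did not pass the low-count filter with the purer gate, where it averaged 0.22 and 0.43 CPM. In the mixed libraries, before that gate, 5 of the list's 6 genes were higher and none lower.

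Chemokines and cytokines were higher in line 24, with 18 of 23 genes passing upward (median 1.61) and Csf3 and Pthlh downward. Ccl2 read 123, 107, 41.0, 35.7, 17.2 and 45.6 CPM in line 19 and 1035, 875, 729, 1370 and 733 CPM in line 24. Every line 24 tumour was above every line 19 tumour, and the averages of controls 15 and 18, 454 and 163 CPM, fell between the lines. Csf2, the granulocyte-macrophage growth factor, read 3.29, 2.08, 1.58, 0.79, 1.38 and 2.16 CPM in line 19 and 20.9, 25.2, 22.9, 47.7 and 21.4 CPM in line 24. The log2 fold change of Csf2 was 3.89 (SE 0.28, edgeR adjusted p = 1.7e-07), and those of the chemokine Cxcl12 and the alarmin Il33 were 3.22 and 3.04. The changes with the purer gate were 4.56 for Ccl2 and 4.52 for Csf2.

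Of 10 complement genes 9 were higher (median 1.53), and 5 in the mixed libraries (1.04). They included the C1 proteases C1s1 (2.96) and C1ra (2.27) and the C4 gene C4b (1.87). C1s1 lay at 3.12 to 9.37 CPM in line 19 and 26.9 to 57.4 CPM in line 24.

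Matrix genes moved in both directions. Fibroblast markers, Cxcl12 among them, summed to 86.8 to 165 CPM in the other cells of line 19 and 151 to 358 CPM in line 24, and pericyte markers to 7.2 to 15.1 and 14.1 to 31.7 CPM. Both overlapped between the lines, and their part in the matrix genes was not tested. Of 16 collagens 9 were higher and 3 lower (median 0.34), with Col15a1 at 1.91 and Col6a2 at 1.02 against Col12a1 at -1.53 and the fibrillar chain Col1a1 at -1.47. Only 3 collagens were higher and 2 lower in the mixed libraries, and Col15a1 and Col12a1 were 0.33 and -0.10 there. For 6 of the 16, Col1a1 and Col6a2 among them, the line difference changed with day by edgeR's test. The list's median difference in the own libraries was 1.08 at day 6, 0.34 at day 10 and 0.11 at day 16. The purer gate left 3 of these calls and counts thinned to equal depth 2. The proteoglycans Prelp (3.59), Ecm2 (2.50) and Ogn (2.06) were higher, among 4 of 8 tested small leucine-rich proteoglycans. Of 15 matrix proteases and inhibitors 7 were higher and 4 lower, with Mmp3 at 1.10 to 17.1 CPM in line 19 and 88.1 to 138 CPM in line 24. Mmp9 (3.70), Mmp13 (2.66) and the inhibitor Timp3 (2.43) rose too. Of 5 bone matrix genes tested 2 were higher and 1 lower, with Sparc at -0.63 and the transcription factor Runx2 at 0.42. The second higher gene, Dmp1, ran from 0.37 to 0.83 when tumours were left out in turn (edgeR adjusted p up to 0.198). The mixed libraries had 1 gene of this list higher and 1 lower. Of 11 S100 genes 4 were higher and 6 lower; S100a3 was at -1.93 and S100b at 1.91, and S100a8 (2.47) and S100a9 (2.64) fell to 1.38 and 1.53 without the second line 24 tumour of day 16. S100a8 and S100a9, which neutrophils carry, did not pass the low-count filter with the purer gate. The mixed libraries had 3 S100 genes higher and 1 lower, and the list's median turned from -0.29 to 0.19.

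**Figure D3:**
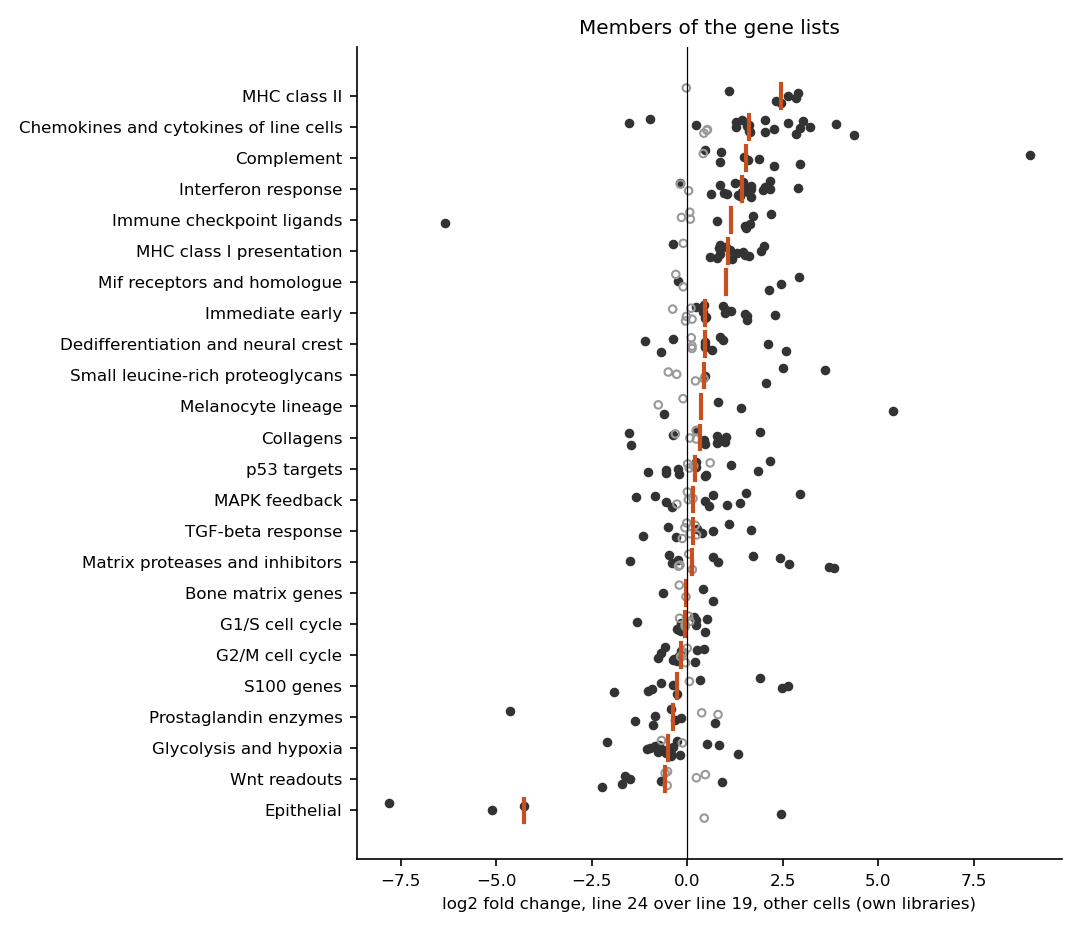
Log2 fold change of each tested list member in other cells, line 24 over line 19, own libraries. The sex-linked list is not drawn. Filled points passed edgeR's test at an adjusted p of 0.05, open points did not, and orange bars are list medians: 2.46 for MHC class II and 1.61 for chemokines and cytokines at the top, -4.27 for the epithelial list at the bottom.

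Line 19 carried more of the simple-epithelial keratins. Krt18 lay at 427 to 699 CPM in line 19 and 21.0 to 43.4 CPM in line 24 (-4.27, SE 0.08, edgeR adjusted p = 3.7e-12), and its partner Krt8 at 6.97 to 19.9 and 0 to 0.80 CPM (-5.13). Controls 15 and 18 averaged 178 and 79.7 CPM of Krt18, between the lines. Of 5 epithelial genes tested, 3 were lower in line 24 and 1, the cadherin Cdh1, was higher. Cdh1 did not pass the low-count filter with the purer gate, where the same 3 genes, Krt18, Krt8 and Wfdc2, were lower. Of 14 dedifferentiation and neural crest genes 8 were higher and 3 lower. The repressor Zeb1 was higher in line 24 (6.73 to 8.35 against 29.0 to 37.0 CPM), and Twist1 was lower (195 to 242 against 95.7 to 102 CPM). Neither overlapped. Sox10, the neural crest and Schwann cell factor, was 0 to 0.31 CPM in line 19 and 1.79 to 4.56 CPM in line 24. It belongs to the melanocyte lineage list, where 3 of 6 tested genes were higher and 1, Mitf, was lower (median 0.34). In the mixed libraries 1 gene of that list was higher and 1 lower (median -0.33). Schwann markers, Sox10 itself among the 5, summed to 1.01 to 1.63 and 4.36 to 10.4 CPM, and the part of such cells in Sox10 was not tested. The pigment genes Dct, Tyr, Tyrp1, Pmel and Mlana did not pass the low-count filter.

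Signalling lists were split. Of 15 MAPK feedback genes 7 were higher and 4 lower, with Il17rd (Sef, a feedback inhibitor) at 1.82 to 3.40 CPM in line 19 and 15.1 to 27.6 CPM in line 24, and Phlda1 (1.53) and Spry2 (1.37) against Etv1 (-1.34). Of 14 TGF-beta response genes 5 were higher and 3 lower, with Tgfbi at 1.66 and Tgfb3 at -1.16. Of 16 p53 targets 7 were higher, such as the death receptor Fas (2.15) and Gadd45a (1.85), and 5 lower, such as Pmaip1 (-1.04). Of 11 Wnt readouts tested 5 were lower, with Dkk2 at -2.25 and Axin2 at -1.72, and Lef1 was higher. Only 1 Wnt gene was lower and 1 higher in the mixed libraries. Of 10 prostaglandin enzymes 7 were lower and Ptgs2 was higher. Akr1c18 (-4.63) led them, at 4.61 to 8.37 CPM in line 19 and 0 to 0.80 CPM in line 24, but in the mixed libraries it was 22.2 to 28.7 and 16.9 to 23.8 CPM.

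Glycolysis and hypoxia genes were lower in line 24, 15 of 20 with 3 higher (median -0.52). Eno1, the glycolytic enolase, lay at 2819 to 3195 CPM in line 19 against 1303 to 1685 CPM in line 24, and Egln3, a hypoxia-induced prolyl hydroxylase, at 53.9 to 118 and 17.7 to 28.9 CPM. The log2 fold changes were -0.98 for Eno1 and -2.11 for Egln3, with Hk2 higher by 1.32. The mixed libraries had 6 genes of the list higher and 7 lower (median -0.15). Immediate early genes, induced by stress and growth factors, were higher in 13 of 18 and lower in none (median 0.47). Egr1 lay at 236 to 342 CPM in line 19 against 710 to 1152 CPM in line 24, and Fosb at 111 to 171 and 320 to 559 CPM. The G2/M list had 3 of 16 higher and 8 lower (median -0.18) and turned in the mixed libraries to 3 higher and 0 lower (0.17). In the G1/S list 5 of 16 were higher and 6 lower, with the reductase subunit Rrm2 at -1.33.

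Xist, the X-inactivation RNA of female cells, was higher in line 24 (42.7 to 66.9 CPM against 9.70 to 22.0 CPM). Its day 0 samples read 0.52 and 0.92 CPM in line 19 and 1.34 and 7.13 CPM in line 24, and the purer gate left means of 8.99 and 17.9 CPM in the tumours. Y-linked genes of the list did not pass the filter. The part of host cells in Xist was not tested.

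The mixed libraries hold further tumours of the same lines. Of 13496 genes tested in both, 4926 (36.5%) passed there, 2607 higher (19.3%) and 2319 lower (17.2%). Both fits called 4246 genes, and 4159 of these had the same direction. Of the 8287 genes called in the own libraries 7357 (88.8%) kept their sign, against 79.1% of all genes tested in both. Sparcl1 was 3.57 and Ccl2 3.72 there, the interferon list had 21 of 22 higher (median 1.68), and the class I list 14 higher and 2 lower (1.25). Hspb7, which the controls also express, moved from -7.25 to -2.20, with 39.0 to 44.9 CPM in the mixed tumours of line 24, and control 18 read 113 to 121 CPM in the mixed libraries. The part of control cells, or of the unassigned line captured with line 24, in the smaller difference was not tested. The difference itself changed between own and mixed libraries for 1693 of 14119 genes by edgeR's test.

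**Figure D4:**
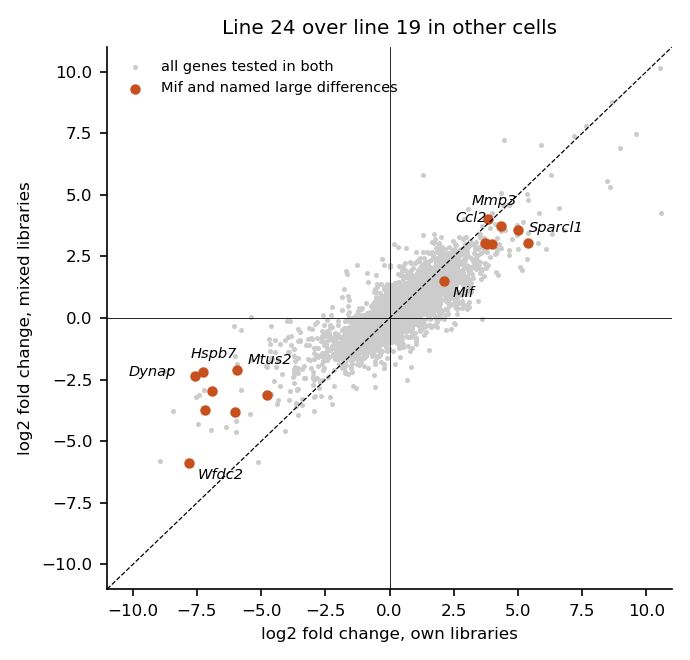
Log2 fold change, line 24 over line 19, in other cells of the own libraries (horizontal) and of the mixed libraries (vertical), 1 point per gene, with Mif and the named large differences in orange and the line of equality dashed. Sparcl1 sits at 5.02 and 3.57 and Wfdc2 at -7.81 and -5.86, and Hspb7, Dynap and Mtus2 lie nearer 0 in the mixed libraries.

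Genes that set the lines apart in other cells also appeared in the immune sums. The 8 named genes highest in line 19 stood in its immune sums at 42.7% to 52.2% of their other-cell level (median 46.6%), and at 11.4% to 31.9% with a purer immune gate, which also asked for at least 1 Ptprc or Tyrobp UMI per 1000 UMIs of the cell. The 7 of line 24 stood at 39.2% to 135% and, with the purer gate, 24.7% to 169%. Wfdc2 of line 19 averaged 247 CPM in other cells, 129 CPM in immune cells and 28.1 CPM in the purer immune cells. The part of line-cell RNA in these levels was not tested. The usual gate called 2427 of 10648 genes (22.8%), with 11% higher and 11.8% lower, and the purer gate 526 of 8996 (5.85%), with 3.31% higher and 2.53% lower. The mixed libraries gave 330 of 10591 (3.12%) and 49 of 8806 (0.556%).

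With the purer gate, 9 of 22 interferon genes were higher in the immune cells of line 24 and none lower (median 0.71). The inflammatory genes Il12b, Ptgs2, Cxcl10, Il1b and Il6 and the class II genes H2-Ab1, H2-Eb1 and H2-Aa were higher, while only B2m of the class I list passed. In the mixed libraries with that gate, 0 of 22 interferon, 0 of 11 inflammatory and 0 of 8 class II genes passed edgeR's test, with medians of 0.52, 0.34 and 0.38. At an unadjusted p under 0.05 edgeR gave 17, 5 and 2 genes there. No share of all genes at an unadjusted p is given here, so such counts, here and below, cannot be read against one. Granzyme genes ran the other way: Gzmc, Gzmd, Gzme and Gzmf, cytotoxic proteases of killer lymphocytes, were lower in line 24. With the usual gate Gzmc read 275, 179, 362, 373, 152 and 163 CPM in line 19 and 165, 44.7, 24.7, 42.4 and 21.2 CPM in line 24. The day 6 tumour of line 24 lay among those of line 19 and the later ones below them. The log2 fold change of Gzmc was -2.45. Gzmd rested on few counts, with 1 UMI over the 5 tumours of line 24 and 0 to 28.9 CPM in line 19, and the lines overlapped. Its fitted change ran from -8.09 to -4.85 when tumours were left out in turn (edgeR adjusted p up to 0.041), and was -0.30 in the mixed libraries. Gzmb, another granzyme, was higher by 1.08 with the usual gate. With the purer gate Gzmb was at 0.42 and no longer passed (edgeR adjusted p = 0.573), so that no gene of the cytotoxic list was higher and 4 of 12 were lower (median -0.47). In the mixed libraries with that gate 1 of 11 genes was lower and the median was 0.52, with 6 at an unadjusted edgeR p under 0.05. With the usual gate 2 genes of the list were higher there and none lower (median 0.53). Of 8 osteoclast genes, Ctsk, Atp6v0d2, Tnfrsf11a and Mmp9 were lower with the purer gate and none higher (median -0.80), while with the usual gate 2 were lower and Ocstamp was higher. The mixed libraries called 0 of 7 with the purer gate by edgeR (median -0.75, 5 at an unadjusted p under 0.05). Ctsk read, with the usual gate, 2.95 to 107 CPM in line 19 and 1.66 to 5.61 CPM in line 24, with overlap.

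Immune cells with at least 3 UMIs of the C1q genes, a macrophage mark, numbered 989 in line 19 and 2274 in line 24. Genes that set the lines apart in other cells differed here too. With tumours left out in turn, the usual gate gave Wfdc2 -7.42 to -6.73, Krt18 -4.24 to -3.93 and Sparcl1 5.95 to 7.43. The part of line-cell RNA in the differences of C1q-gated cells, with either gate, was not tested. Of 8572 genes 1293 (15.1%) passed, 7.7% higher and 7.38% lower, and 8.2% did not overlap between the lines. With the purer gate 438 of 6502 (6.74%) passed, 3.83% higher and 2.91% lower. The mixed libraries gave 328 of 8473 (3.87%; 2.73% higher, 1.14% lower) and, with the purer gate, 157 of 6101 (2.57%; 1.67% higher, 0.901% lower). Class II genes were higher in line 24: 7 of 7 with the usual gate (median 0.84) and 7 of 7 in the mixed libraries (1.34), and 4 and 6 with the purer gate. H2-Eb1 read 1173, 1183, 2300, 2219, 2295 and 1636 CPM in line 19 and 1746, 3588, 3836, 4638 and 4578 CPM in line 24. At each day the line 24 tumours were the higher, although the day 6 one lay within the range of line 19. In the mixed libraries H2-Eb1 was 530, 1244 and 741 CPM at days 6, 10 and 16 in line 19 and 1261, 2794 and 3711 CPM in line 24. The purer gate gave 2034 to 4054 CPM in line 19 and 2574 to 6238 CPM in line 24, again higher in line 24 at each day. The log2 fold change of H2-Eb1 was 0.88, 0.61 with the purer gate (edgeR adjusted p = 0.0006) and 1.38 with that gate in the mixed libraries.

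Interferon genes were higher in C1q-gated cells, 15 of 22 with the usual gate (median 0.98) and 9 with the purer one (0.60), with 12 and 3 in the mixed libraries and none lower. Isg15, a ubiquitin-like interferon product, read 1006 and 1028 CPM at day 6 in line 19, 291 and 317 at day 10, and 228 and 240 at day 16. Line 24 read 876, then 636 and 818, then 1034 and 884 CPM. So line 19 was the higher at day 6 and line 24 at both later days, the order seen in other cells for the later days. The purer gate gave Isg15 the same order: 1685 and 1590 CPM in line 19 against 829 CPM in line 24 at day 6, and 254 to 377 against 648 to 1136 CPM later. With the purer gate Stat2 was 1.15, Gbp7 1.12, Isg15 1.02, Gbp3 0.77 and Bst2 0.52.

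Of 9 markers of tissue-resident and alternatively activated macrophages, Folr2 and Mrc1 were lower in C1q-gated cells with the usual gate and none higher. With the purer gate 5 of 9 were lower and none higher: the folate receptor Folr2 (-1.75), the mannose receptor Mrc1 (-1.04, edgeR adjusted p = 0.011), Maf (-0.59), arginase Arg1 (-2.80) and the chemokine Ccl8 (-0.89). The mixed libraries had 4 lower, with Folr2 at -1.87 and Mrc1 at -1.24. Folr2 read 13.8, 26.4, 18.9, 49.9, 55.3 and 17.2 CPM in line 19 and 30.9, 16.8, 10.5, 2.78 and 6.51 CPM in line 24 with the usual gate, where the lines overlapped. That call rested in part on 1 tumour, since without the first day 16 tumour of line 19 it was -1.27 (edgeR adjusted p = 0.054). Mrc1 with the usual gate ran from -1.21 to -0.61 when tumours were left out in turn, with an edgeR adjusted p of up to 0.215. Apoe, the lipid carrier, was higher by 1.2 with the purer gate, while Lgals3 (-0.79), Plin2 (-0.72), Fabp5 (-0.77) and Trem2 of the lipid list were lower. That gate in the mixed libraries gave 2 lipid genes higher, Apoe among them, and 1 lower. With the usual gate 2 were higher and 6 lower, and in the mixed libraries 2 and 0. The fractalkine receptor Cx3cr1 (1.31), the cytokine receptor chain Csf2rb (0.62) and the acid phosphatase Acp5 (1.15) were higher, and Ccl9 (-1.22) and Ccl6 (-1.09) lower. Of these 5, the mixed libraries called Csf2rb, Acp5 and Ccl9 in the same direction with that gate, but neither Cx3cr1 (0.63) nor Ccl6 (-0.42). With the usual gate the osteoclast list had Acp5 and Ocstamp higher and Ctsk lower among 7 tested. Of the glycolysis list Eno1, Egln3, Ldha, Pgam1 and Pgk1 were lower and Vegfa was higher (1.10). All 5 were lower in other cells too. With the purer gate the mixed libraries called none of 18 lower by edgeR and Vegfa higher (median -0.01), with 3 genes at an unadjusted p under 0.05.

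**Figure D5:**
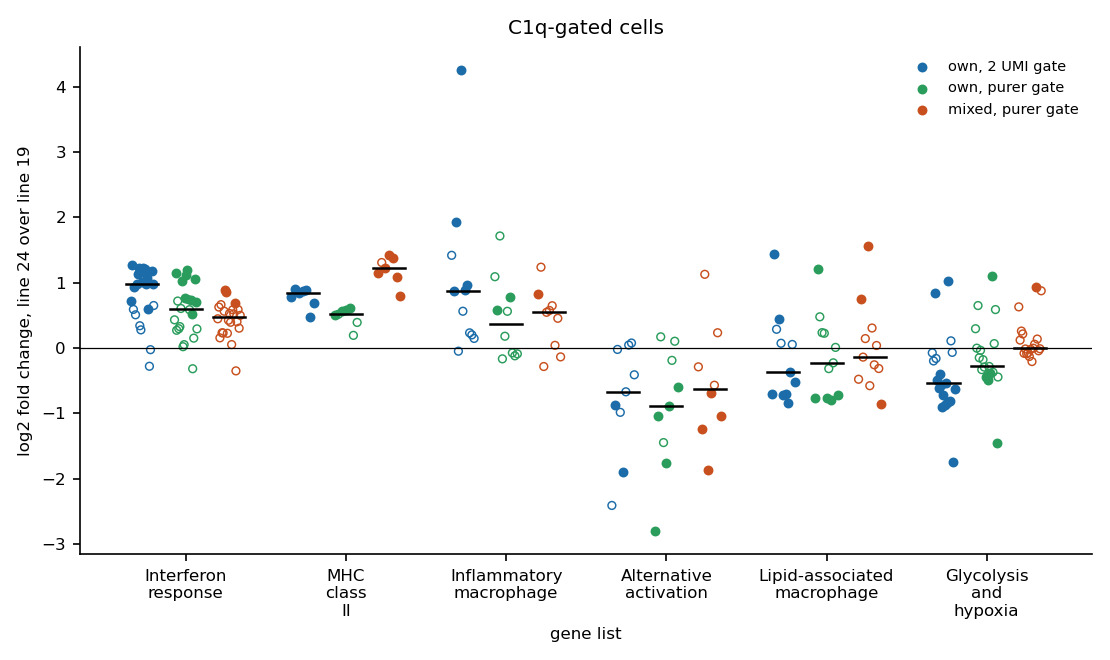
Log2 fold change, line 24 over line 19, of list members in C1q-gated cells: own libraries with the usual gate (blue) and the purer gate (green), and mixed libraries with the purer gate (orange). Filled points passed edgeR's test and bars are medians, which for MHC class II are 0.84, 0.52 and 1.23. The alternative activation members that passed lie below 0 in all 3 sets.

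Cd3-gated cells (immune cells with at least 2 UMIs of Cd3 genes, a T-cell mark) numbered 449 and 736, and the day 6 tumour of line 24 was left out with 18 cells, so 4 tumours met 6. Of 6524 genes 470 (7.2%) passed, 3.63% higher and 3.57% lower, and 6.56% did not overlap. The purer gate called 65 of 2511 (2.59%), 2.07% higher and 0.518% lower. The granzymes Gzmc and Gzmf and the cathepsin Ctsw were lower in line 24 among 9 cytotoxic genes tested with the purer gate (median -0.67), which gave no fit for these cells in the mixed libraries. The usual gate had Gzmb higher and Gzmc lower among 10 (median 0.41), and the mixed libraries 2 higher and none lower among 8 (0.04). Of the inhibitory receptor, memory and regulatory T-cell lists edgeR called 0 of 8, 0 of 9 and 0 of 7 genes with the usual gate, and 0 of 5, 0 of 4 and 0 of 6 with the purer one, where 2, 0 and 1 had an unadjusted p under 0.05. The interferon genes Isg15, Ifitm3, Irf7 and Bst2 were higher with the purer gate, 4 of 16 tested. Macrophage markers in Cd3-gated cells summed to 18.9 to 48.5 CPM in line 19 and 69.8 to 138 CPM in line 24, with no overlap, and their part in these differences was not tested. The class II list was higher in 6 of 6 genes with the usual gate (median 2.72) and lower in 4 of 6 in the mixed libraries (-1.92). The mixed libraries called 67 of 4887 (1.37%) with the usual gate, 0.818% higher and 0.552% lower, and of 36 genes called in both fits 22 had the same direction. Timp3 and Cxcl12 were among the highest and Wfdc2, Hspb7 and Anxa8 the lowest among well-expressed genes with the usual gate, and all 5 also differed in other cells. Cxcl12 lay at 0 to 8.57 CPM in line 19 and 24.6 to 52.4 CPM in line 24, and Wfdc2 was at 0 in all 4 tumours of line 24.

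The share of immune cells, after thinning each cell to 1000 UMIs, was 22.6% and 17.0% at day 6, 4.15% and 8.81% at day 10 and 8.79% and 7.8% at day 16 in line 19. In line 24 it was 17.1%, then 18.6% and 19.1%, then 23.5% and 19.7%. The lines overlapped at day 6 and were apart at days 10 and 16. Means were 11.5% ± 6.86 (SD, n = 6) and 19.6% ± 2.37 (SD, n = 5), and the difference within days was 7.65 percentage points (exact permutation test within days, two-sided, p = 0.037, 0.148 after Benjamini-Hochberg adjustment over the 4 shares). It therefore did not pass the correction. The share differences printed here weight each day alike, while the statistic permuted was the difference of day-centred means over tumours. Unthinned, the difference was 10.7 points (exact p = 0.0463). The thinned shares leave out cells under 1000 UMIs. These were 1.47% to 9.23% of a tumour's cells in line 19 and 8.51% to 12.7% in line 24. In the mixed libraries the shares were 11.1%, 10.1% and 5.34% in line 19 and 20.7%, 13.3% and 22.3% in line 24, higher in line 24 at each of the 3 days, where the exact test cannot give a p under 0.25. Among immune cells, the Cd3-gated share differed by -1.0 point (exact p = 0.417), the C1q-gated share by 2.28 points (exact p = 0.833) and the share with S100a8 and S100a9 by -0.139 points (exact p = 0.806). These shares come from cells that survived dissociation and a live-cell sort.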

How the data were processed

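Raw counts of UMIs by gene and barcode, with hashtag counts, were deposited by the authors for 6 libraries, made with Cell Ranger 6.0.0 and build mm10 per the submitters' processing notes. A deposited sheet pairs hashtags with line, day and letter. Counts were summed per tumour and cell class (at least 20 cells) and tested with edgeR 4.0.16 (filterByExpr, TMM, quasi-likelihood, day and line as terms, Benjamini-Hochberg threshold 0.05) in R 4.3.3. CPM are TMM-scaled and keep no gene length. Shares of cells were compared by exact permutation within days (Python 3.11.15), after thinning to 1000 UMIs. No doublet caller was run; ambiguous hashtags were left out and doublets within a tumour remain. On simulated data with 200 changed genes, the other-cell fit recovered 97% of 4-fold and 83% of 2-fold changes among 14146 genes, with 6.74% false calls. The Cd3-gated fit recovered 66% of 2-fold changes. The simulation held no library effect and far fewer changed genes than were called, so its false-call rate cannot be carried over to the data. Members and gene lists were chosen with earlier results of these data known. Named genes were Mif, the largest non-overlapping changes with a mean log2 CPM of at least 4 (8 each way in other, 5 in immune, 3 in C1q- and Cd3-gated cells) and up to 4 largest changes of each list; immune lists are given with a purer gate, added after seeing the data, so members named there follow its calls, and the genes named for their change by day or for a shared promoter motif were picked after their values were seen. A result the rule would name is not reported here. Alternatives were another scaling, no filter, DESeq2 1.42.0, stricter hashtag and quality limits, other gates, thinning, and each tumour left out. Whether letters pair tumours was checked by correlating the A minus B differences of the lines at days 10 and 16, which was -0.023 and -0.018 in other cells; a shared letter was not taken as a pair.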

Additional observations from a re-analysis of the deposited data

Results flagged for a closer look

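A sample stood apart from its group of 4 to 6 tumours (Dixon's criterion at 95%) in 28 of 332 groups of values (8.43%). Chance flags about 1 in 20 groups of independent values with a normal spread. Groups here pooled days, and some held counts in 1 tumour only, so that rate does not hold for them. No explanation was tested for any of the samples that stood apart.

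The day 6 tumour of line 24, the only one of its day and the smallest of its line, stood apart most often. In other cells it was lowest for Dclk1 at 88.85 CPM and for C1s1 at 26.94 CPM, and highest for the collagens Col1a1 at 521.5 CPM and Col6a2 at 154.4 CPM. In immune cells it was highest for the granzymes Gzmc at 164.6 CPM, Gzmb at 480.6 CPM and Gzmd at 1.892 CPM, and lowest for H2-Ab1 at 1642 CPM and H2-Eb1 at 1640 CPM. Without it Gzmc was still lower in line 24 in edgeR's test, with an adjusted p of at most 0.0031 over all tumours left out in turn.

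The second line 24 tumour of day 16 was highest for H2-Aa (212.5 CPM) and S100a8 (10.72 CPM) in other cells, for Il12b in C1q-gated cells (70.51 CPM) and for Anxa8 in Cd3-gated cells (0.6162 CPM, the others at 0). The first was highest for Csf2 in other cells (47.66 CPM) and for the Cd3-gated share of immune cells (8.621%). The first day 10 tumour of line 24 was highest for Gzme in immune cells (0.5518 CPM).

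In line 19, single tumours were highest for Col12a1 (65.87 CPM) and Sox10 (0.3087 CPM) and lowest for S100b (0.0629 CPM) and Eno1 (2819 CPM) in other cells. In immune cells single tumours were highest for Sparcl1 (6.564 CPM), Ccn5 (2.948 CPM) and the osteoclast protease Ctsk (106.6 CPM). In C1q-gated cells they were highest for Ccn5 (1.321 CPM), Il12b (5.526 CPM) and Ptgs2 (141.5 CPM), and in Cd3-gated cells for Timp3 (4.286 CPM) and Cxcl12 (8.572 CPM).

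Tests of a difference between groups by edgeR gave 168 of 14902 genes (1.13%) whose line difference changed with day in other cells. They gave 1230 genes whose line difference was unlike in immune and other cells, a count given here without its share of genes tested. Between own and mixed libraries the line difference changed for 1693 of 14119 genes in other cells and 525 of 11657 in immune cells. In C1q-gated cells it changed for 123 of 9015 genes and in Cd3-gated cells for 150 of 6426.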

How the results depend on the processing

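The alternatives were run for 102 other-cell, 27 immune, 29 C1q-gated and 5 Cd3-gated genes, and none changed direction where it was tested. Of them 94, 17, 15 and 5 passed under every alternative (edgeR, or DESeq2 as one of them) that tested the gene. Some alternatives did not test every gene, as in Cd3-gated cells, where they gave 88 values for the 5 genes. The other genes named, such as those called with the purer gate alone, were not rerun.

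Thinning every cell to equal depth lowered the counts of genes passing to 4284 in other cells, 94 in immune, 71 in C1q-gated and 12 in Cd3-gated cells, and 60 for the change of the line difference with day, with fewer genes tested. Gating on thinned cells gave 347 immune, 222 C1q-gated and 31 Cd3-gated genes. The purer gate gave 526, 438 and 65. For Cd3-gated cells the stricter hashtag call gave 232 genes, leaving out the cells of most UMIs 270 and adding the mixed libraries 298. Without the low-count filter, 1155 genes passed in immune cells of the mixed libraries and 1115 for the change with day. The causes were not tested. In Cd3-gated cells the share of calls that were higher in line 24 moved from 50.4% to 60.3% with the stricter hashtag call, 80.6% gating on thinned cells, 75.0% with thinned counts and 80.0% with the purer gate.

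Leaving out each tumour in turn gave 7581 to 8543 genes in other cells, 1856 to 2362 in immune, 881 to 1285 in C1q-gated and 251 to 507 in Cd3-gated cells. It gave 2754 to 4762 in other and 254 to 635 in immune cells of the mixed libraries, and 57 to 301 for the change with day. The immune share difference ran from 6.73 to 12.8 points, the Cd3-gated from -2.68 to 0.127, the C1q-gated from -4.58 to 9.14 and the S100a8 and S100a9 share from -0.315 to 0.115. In the mixed libraries the Cd3-gated share difference was 2.98 points and the C1q-gated -14.6, and thinning to 2000 UMIs turned that of S100a8 and S100a9 to 0.180.

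With day and letter as a replicate block, edgeR called 7672, 1968, 959 and 427 genes in other, immune, C1q-gated and Cd3-gated cells, and the immune share differed by 9.18 points (exact sign flips of pairs, p = 0.125). Letters A and B share only a letter between the lines.

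Depth limits the immune sums: the day 6 tumour of line 24 gave 185 immune and 46 C1q-gated cells. Within-day spread rests on pairs of tumours. Line and library cannot be told apart in any comparison.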
